A study of Mus musculus with 24 samples.

Results

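Circular RNAs whose junctions were typed as intron or intergenic, and not as exon, were described in mouse medial frontal cortex, taken on postnatal day 28. Of 10673 circular RNAs listed in the deposited table, 470 were of a type other than exon and had a score above 0 in at least 2 of 12 libraries, 359 of them of intron type and 111 of intergenic type. Membership used type and detection only, with no reference to genotype. The study held 4 groups of 3 samples on a C57BL/6J background, divided by genotype (control or Dnmt3l) and by sex. Controls were offspring of Emx1-cre mice, which express Cre recombinase in the Emx1 lineage of the dorsal forebrain (excitatory neurons and glia), and the genotype called Dnmt3l here was obtained by breeding such mice to a line in which Dnmt3l is knocked in conditionally. All 4 groups therefore came from Emx1-cre breeding, no group without Cre was part of the design, and cells outside the Emx1 lineage, such as inhibitory neurons, microglia and endothelial cells, are part of the tissue. The labels number samples 1 to 3 within each group and do not state that these were separate animals. The p-values given here therefore reflect the variation among samples, of which some may be technical.

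A circular RNA forms when a downstream splice donor is joined to an upstream splice acceptor, a reaction called back-splicing, and reads across that junction identify it. Most known circles consist of exons and are stable because they have no free ends. Circles that hold intron sequence arise in other ways: an intron released as a lariat can escape the debranching enzyme, or a back-splice can use a site inside an intron or outside annotated genes. Brain is a tissue rich in circular RNA, and many of its circles come from long genes with synaptic roles.

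The sequences at the ends of these circles are shown first, because they bear on what kind of junction the types "intron" and "intergenic" hold. RefSeq sequence of the build GRCm38.p6 was at hand only for promoter windows of 300 bases, and these windows covered 15 ends of members. Each of the 15 ends had the dinucleotide of a splice site directly outside the circle, on the plus or the minus strand: AG before the first base at 12 ends and GT after the last base at 3 ends. The same held for 134 of 134 covered ends of exon-type circles. Over all positions of the 32851 promoter windows, 12.5% are preceded on the plus strand by AG or by the reverse complement of GT, and 12.5% are followed by GT or by the reverse complement of AG. The program that called the circles was not given in the sources used here, and whether these dinucleotides were required by the caller was not tested. Of the following examples, each runs over 30 bases on the strand that carries the splice dinucleotide, 15 outside and 15 inside the circle, with AG or GT in capitals. The circle ending at Rbm4 was above 0 in every library. Its deposited host is Gm21992 alone, and Rbm4 is added by RefSeq. The next is the intron type in Fars2, and the other 4 are of intergenic type.
first base of chr19:4784724-4794009, host Gm21992 and Rbm4, minus strand: ttcctggcctctcAGgtaattggcgttccg
first base of chr13:36207627-36342097, host Fars2, plus strand: tttctgctctctcAGgattgcaccgccagt
first base of chrX:151198022-151211030, promoter of Wnk3, plus strand: ttttccattcttcAGgttgctatgggaata
first base of chr7:60902612-60939881, promoter of Gm29729, minus strand: ttattttttttccAGtaatgctcctggttg
last base of chr5:109751595-109805077, promoter of 4930522L14Rik, minus strand: cgaagttgcgacatgGTgagtacagggtca
last base of chrY:90739142-90793680, promoter of Gm33272, plus strand: cacgcacgccgtcagGTaggacacgcagcg

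A single member lay wholly inside a window, the circle of 218 bases at chr2:68968268-68968485, typed as intron of Cers6, which encodes a ceramide synthase. It is shown whole with the 2 bases on either side in capitals.
chr2:68968266-68968487, minus strand: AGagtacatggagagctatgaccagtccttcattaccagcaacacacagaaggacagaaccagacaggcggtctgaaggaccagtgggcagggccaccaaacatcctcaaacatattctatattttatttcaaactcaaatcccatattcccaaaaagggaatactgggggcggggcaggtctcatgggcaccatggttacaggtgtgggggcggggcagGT
Cers6 is on the plus strand (chr2:68861441-69114282), whereas AG and GT flank this circle on the minus strand, the strand of the neighbouring RefSeq gene Gm52515. Of 4 distinct ends that had a host gene and could be read over 30 bases, 3 had the dinucleotide on the strand of the host. The exception was the last base of this circle, whose first base is not among the 4. The circle was scored in 2 libraries, at 21 in control female 1 and 19 in control female 2, and at 0 in the other 10.

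The values are scores: in every library each value equalled the number of junction reads times a constant of that library, 5.248 to 6.3439, with the decimals dropped. The lowest score above 0 corresponded to 2 reads, so a score of 0 means fewer than 2 reads and not absence. Summed over all circular RNAs, a library held 16642 to 36573 junction reads. The lowest total was Dnmt3l female 3 and the highest control female 3. The following features of single libraries touch the results below. Control male 3, control female 1 and control female 2 held liver transcripts (Alb at 33.8, 45.1 and 48.2 CPM, the mRNA counts of a gene scaled to a common library total, against at most 0.457 in the other libraries). In Dnmt3l female 1 several brain cell markers were at control level, as given below. Dnmt3l female 3 had 1.89 CPM of the Y-linked gene Ddx3y, against at most 0.204 in other females and 22.0 or more in males. Dnmt3l itself was at 19.5 to 46.3 CPM in Dnmt3l libraries and at most 0.105 in controls.

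The members were mostly rare. Of the 470, 211 (44.9%) were above 0 in exactly 2 libraries, 116 in 6 or more and 16 in all 12. Among exon-type circles above 0 in at least 2 libraries the share seen in exactly 2 was 27.2%, and 455 of 4761 were seen in all 12. The median member had a mean score of 5.62 over the libraries, against 9.25 for the median exon-type circle. No test was made of these shares, which depend on level and depth.

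Their genomic spans ran from 174 to 197768 bases with a median of 20635, against 13891 for the exon type, and 29.6% of members spanned more than 50000 bases, against 13.2% of exon-type circles. The shortest were chr17:8842557-8842730 in Pde10a, a phosphodiesterase gene, and chr2:162632651-162632826 in Ptprt, a receptor tyrosine phosphatase gene. The longest were chr7:59488404-59686171 and chr7:59490276-59686171, in Snhg14. Taken library by library over the members above 0 there, the ratio of the median span of members to that of exon-type circles ran from 0.931 to 1.475 and was above 1 in 8 of 12 libraries (exact sign-flip permutation test over libraries, two-sided, p = 0.0889). By genotype the ratio was 0.931 to 1.062 in controls, above 1 in 3 of 6, and 1.03 to 1.475 in 5 of 6 Dnmt3l libraries, with Dnmt3l female 3 at 0.959. The 106 members in Snhg14 had a median of 71394 bases, and the 253 other intron-type members had a median of 11618, below that of the exon type.

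**Figure D1:**
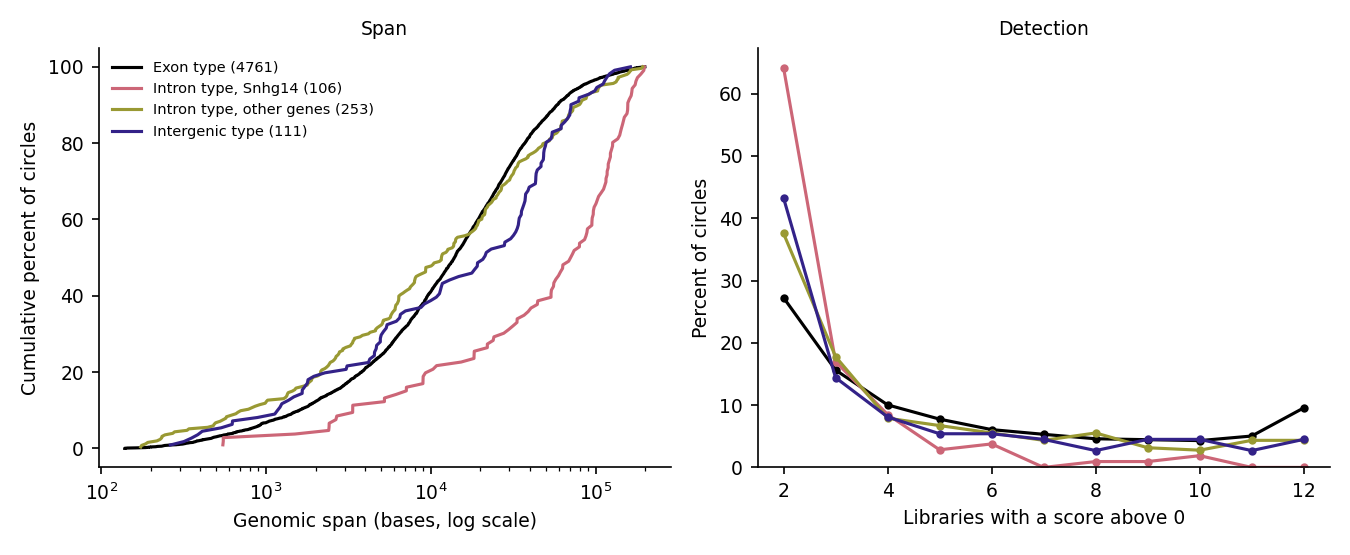
Left, cumulative percent of circles against genomic span (log scale) for exon-type circles, intron-type members in Snhg14, other intron-type members and intergenic-type members. Right, percent of each set by the number of libraries with a score above 0. Snhg14 members lie to the right of the other sets, with a median span of 71394 bases, and 64.2% of them were above 0 in exactly 2 libraries.

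The types are those of the deposited table, and many circles called intergenic there lie in a gene of another annotation. In RefSeq, 49 of the 111 intergenic members had both ends inside a single gene, 26 had 1 end in a gene, 4 had ends in 2 genes, and 30 had no end in a gene. The other 2 lay on a scaffold for which the RefSeq table used here has no entries. The most abundant of them on a placed chromosome, chr5:150604177-150608440, had both ends in the RefSeq gene N4bp2l2, and 1 end in that gene by the deposited positions. Its score was 183 to 308 in controls, with a median of 220, and 54 to 222 in Dnmt3l, with a median of 157.5. The groups overlapped, and the log2 change of -0.64 ± 0.32 (SE) had an adjusted p of 0.526 (limma). Another abundant pair shared the lower end 5322244 on chromosome 15, and at least 1 end of each was in the RefSeq gene Gm41257. The circle chr15:5322244-5333050 scored 98 to 211 in controls and 55 to 291 in Dnmt3l.

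Members often shared an end with other circles. One or both ends of 162 members (34.5%) were also the end of an exon-type circle, and only 1 member had both ends in common with exon-type circles. The share was 41.2% of intron-type and 12.6% of intergenic-type members. An end was shared with another member by 237 of the 470. In 4 pairs the circles had 1 end in common and differed by 3 bases at the other, 3 pairs in Fmn1, a formin gene of actin assembly, and 1 in Rims2, which encodes a scaffold of the presynaptic active zone. Reads of such pairs differ only at the junction, and how they were divided is uncertain.

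None of the most abundant members on placed chromosomes that were tested passed the test between genotypes. One of them, a circle on the Y chromosome described further on, was seen in too few libraries to enter it. The highest mean score of the intron type was that of chr7:61194987-61202989 in A230006K03Rik, a non-coding gene. It scored 264, 257 and 335 in control males, 318, 272 and 392 in control females, 146, 308 and 444 in Dnmt3l males and 370, 71 and 184 in Dnmt3l females. The Dnmt3l libraries were both above and below the controls, and the log2 change was -0.48 ± 0.31 (adjusted p = 0.645, limma). In Rims1, which encodes another scaffold of the presynaptic active zone, chr1:22346293-22393948 scored 105 to 192 in controls (median 151.5) and 107 to 256 in Dnmt3l (median 185). Its log2 change was 0.26 ± 0.33. The circle chr19:4784724-4794009, whose first base is shown above, scored 120 to 203 in controls and 85 to 205 in Dnmt3l. Rbm4, where it ends, encodes an RNA-binding protein. In Fmn1, chr2:113426522-113563370 scored 82 to 176 in controls and 55 to 176 in Dnmt3l. In each of these the genotypes overlapped. Other circles above 0 in all 12 libraries came from Erc2 (active zone scaffold), Ssbp2 (DNA-binding protein) and Hivep2 (zinc finger transcription factor, with 2 such circles), and from a stretch of chromosome 7 with no RefSeq gene at either end.

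Chromosome 7 held 157 of the 470 members (33.4%), against 4.33% of exon-type circles. Within the window from 59 to 62 Mb lay 141 members, 30% of all: 106 in Snhg14, 5 in A230006K03Rik and 30 of intergenic type. Snhg14 is a long non-coding RNA of the imprinted Prader-Willi and Angelman region, the host of tandemly repeated small nucleolar RNA genes and antisense to Ube3a in neurons. Fmn1 had the next most members, 7, followed by Dpp10 (a potassium channel partner) and A230006K03Rik with 5 each. The genes Gm2164, Hivep2, Macrod1 and Nrg1 had 4 each.

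The Snhg14 circles had ends in a regular array. Their 106 members used 33 distinct lower and 80 distinct higher ends. Among the 51 pairs of higher ends that lay 1000 to 3000 bases apart, 40 were 1860 to 1880 bases apart. The next fullest stretch of 20 bases held 4 pairs and the median stretch 0. Of the 80 higher ends, 54 (67.5%) had such a partner, and the same spacing was the fullest among the lower ends (5 of 7 pairs). This spacing was looked for after the positions had been seen and is given without a test. The repeats, and the placement of reads among their copies, could not be examined without a genome. How far the number, the ends and the spans of Snhg14 circles rest on that placement was not tested. A clear series shared the lower end 59486959 on chromosome 7, with higher ends at 59492193, 59494061, 59495929 and 59497801, in steps of 1868, 1868 and 1872 bases. Its 4 circles were above 0 in 9, 10, 10 and 8 libraries. The lower end used most, 59458946, belonged to 19 members, whose spans ran from 18308 to 156560 bases.

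Snhg14 circles, as listed, were individually rare, and their summed score was higher in the Dnmt3l libraries. Their summed score was 289, 303 and 386 in control males, 446, 260 and 358 in control females, 606, 580 and 798 in Dnmt3l males and 547, 750 and 668 in Dnmt3l females. The highest control was below the lowest Dnmt3l library. These sums rested on 42 to 85 junction reads per control library and 91 to 142 per Dnmt3l library. The number of Snhg14 circles above 0 was 15 to 26 in controls and 28 to 36 in Dnmt3l. As a percent of the summed circular RNA score they took 0.156% to 0.287% in controls and 0.260% to 0.661% in Dnmt3l, where the ranges overlapped through Dnmt3l female 1. The sums are given as a description, since the set was singled out with earlier results known. Membership also took a score above 0 in any 2 libraries, so circles above 0 only in Dnmt3l libraries were let in. An example is chr7:59458946-59581823, while chr7:59458946-59553741 was above 0 only in controls. How far the sums, the counts and the changes below rest on such detection rules was not tested. Only 8 of the 106 were tested individually, and none had an adjusted p below 0.05. Their median log2 change was 0.95, with 7 of 8 above 0, against a median of -0.36 over all 1989 circles tested. The count above 0 was 5 of 8 without Dnmt3l female 3. The level of Snhg14 in the deposited table of long non-coding RNA moved alongside: 63.4 to 76.6 CPM in controls and 83.6 to 127.8 in Dnmt3l. Whether the circles rose beyond their host was not tested.

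**Figure D2:**
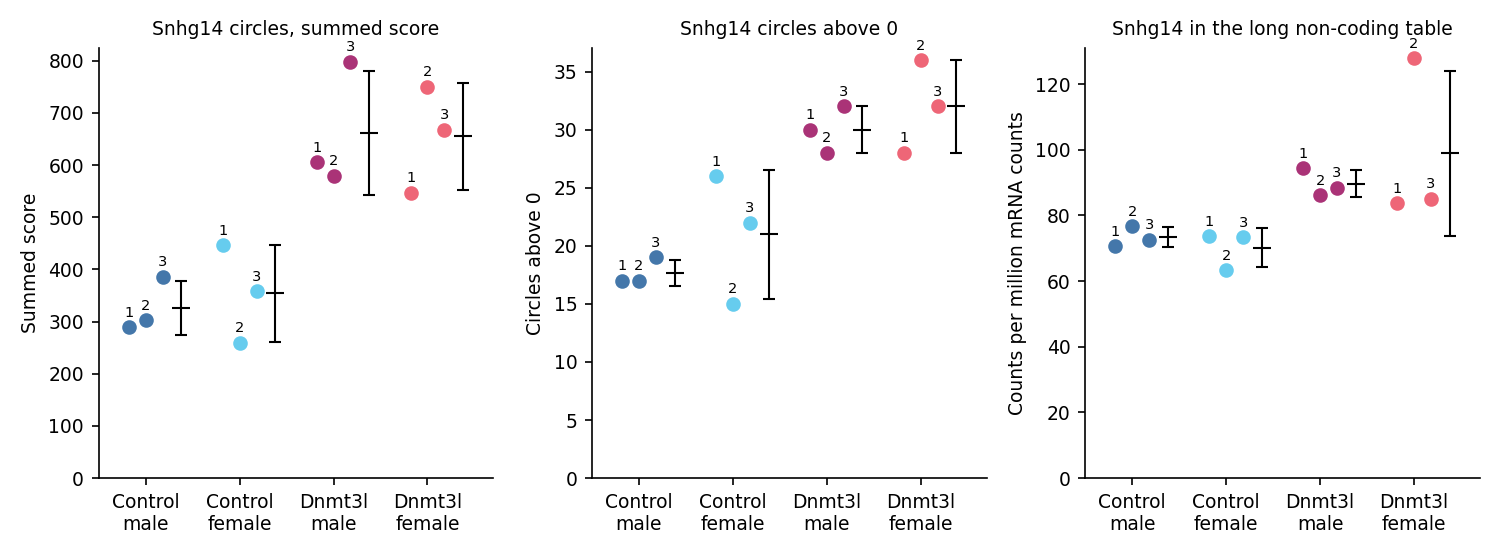
Summed score of the 106 Snhg14 members, number of them above 0, and Snhg14 level in the long non-coding table, per library (points, numbered by replicate) with mean and SD over 3 libraries. In each panel the 6 Dnmt3l libraries sit above the 6 controls; the summed score lay between 260 and 446 in controls and between 547 and 798 in Dnmt3l.

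The most abundant members of all lay on the unplaced scaffold JH584304.1 and were far higher in the Dnmt3l libraries. Neither annotation used here holds entries under the name of that scaffold, so genes between or around the ends of these circles could not be looked up. The circle JH584304.1:25369-60857 scored 394, 0 and 572 in control males and 538, 329 and 427 in control females. It scored 14060, 5805 and 8210 in Dnmt3l males and 3858, 13619 and 767 in Dnmt3l females. Every Dnmt3l library was above every control, with the narrowest gap at Dnmt3l female 3. The log2 change averaged over sexes was 4.70 ± 0.45, on the scale of log2(score + 5), with an adjusted p of 1.01e-13 (limma, Benjamini-Hochberg). The circle JH584304.1:25369-59773 shares the lower end. It scored 0, 40 and 0 in control males, 21, 25 and 0 in control females, 1462, 450 and 564 in Dnmt3l males and 291, 895 and 55 in Dnmt3l females. Again no control reached the lowest Dnmt3l library, and the log2 change was 5.06 ± 0.53 (adjusted p = 3.3e-12, limma). In the 6 Dnmt3l libraries the score of the shorter circle was 6.57% to 10.4% of that of the longer, so the pair varied together between libraries. The pair rested on 7 to 109 junction reads per control library and 134 to 2548 per Dnmt3l library. Neither the copy number of the scaffold sequence nor its repeats could be examined without a genome.

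**Figure D3:**
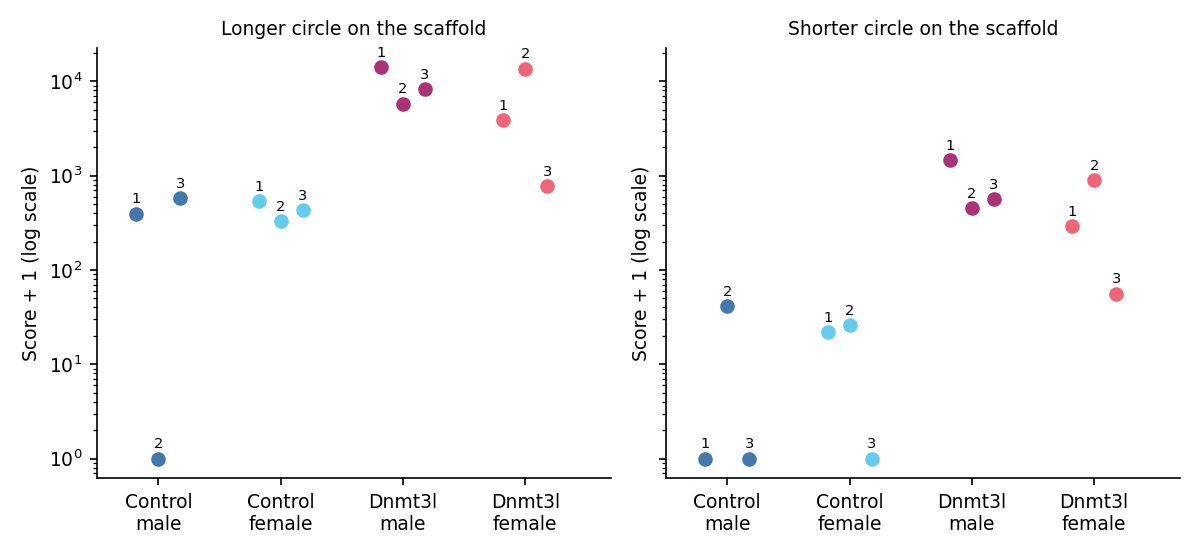
Scores of the 2 circles on the scaffold, plus 1, on a log scale, per library (points, numbered by replicate) in the 4 groups. For the longer circle the controls lie at 572 or below and the Dnmt3l libraries between 767 and 14060; for the shorter the highest control is at 40 and the lowest Dnmt3l library at 55.

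Of the 116 members above 0 in at least 6 libraries, which were the ones tested, these 2 were the only calls at an adjusted p below 0.05, both higher (1.72% of members tested, against a background of 0.251% of all 1989 circles tested, 0.101% higher and 0.151% lower). They were also the 2 calls in males (background 0.151%) and in females (background 0.201%, with 0.101% higher and 0.101% lower). No other member had 6 Dnmt3l libraries all above or all below the 6 controls, against 0.151% and 0.402% of all circles tested. At an unadjusted p below 0.05 there were 10 members (8.62%), with a background of 9.40%. The same counts were 12 in males (background 6.69%), 10 in females (background 7.69%) and 5 for the difference between sexes (background 4.93%). In males the longer scaffold circle changed by 6.38 ± 0.63 and in females by 3.01 ± 0.63 (log2). The difference between the sexes, 3.38 ± 0.89, had an adjusted p of 0.284 (limma, unadjusted p = 0.000286), and no member was called for it (background 0.00%). That difference depended on control male 2, which was at 0. Without that library the male change was 4.19 ± 0.40, the change averaged over sexes 3.60 ± 0.27 and the difference between the sexes 1.18 ± 0.53 (adjusted p = 0.996, limma). Without control male 1 or without control male 3, with control male 2 kept, the difference had an adjusted p of 0.0184 or 3.3e-05 (limma). On recovered reads it was 0.77 ± 0.45 by edgeR and 0.86 ± 1.88 by DESeq2, not called by either. Within each sex the calls of both circles were lost with DESeq2 on recovered reads, where the adjusted p was 0.0789 for each in males and 0.484 for each in females. In females both calls were also lost without Dnmt3l female 2, and the call of the longer circle was lost without control female 1 or without Dnmt3l female 1.

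Over the 116 tested members the median log2 change was -0.24, with 42 above 0 and 74 below, against -0.37 for the exon type and -0.36 for all circles tested. Dividing scores by the library total moved the median of all circles to -0.18 and that of the members to -0.11. After the scaffold pair the smallest p-values belonged to 3 intron-type circles, none called. The circle chr7:91626329-91626813 in Dlg2, which encodes a postsynaptic scaffold, scored 57 to 121 in controls and 60, 0, 79, 48, 0 and 0 in Dnmt3l (log2 change -2.37 ± 0.66, adjusted p = 0.112, limma). The circle chr4:124556045-124586127 in Gm2164 scored 87 to 215 in controls and 0 to 164 in Dnmt3l (log2 change -1.26 ± 0.48, adjusted p = 0.381, limma). Without Dnmt3l female 1 these had adjusted p-values of 0.0116 and 0.0324 (limma), and 1.66% of all circles were then called. The longest member, chr7:59488404-59686171 in Snhg14, was above 0 in 1 control library, at 51, and in 5 Dnmt3l libraries, at 35 to 91.

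**Figure D4:**
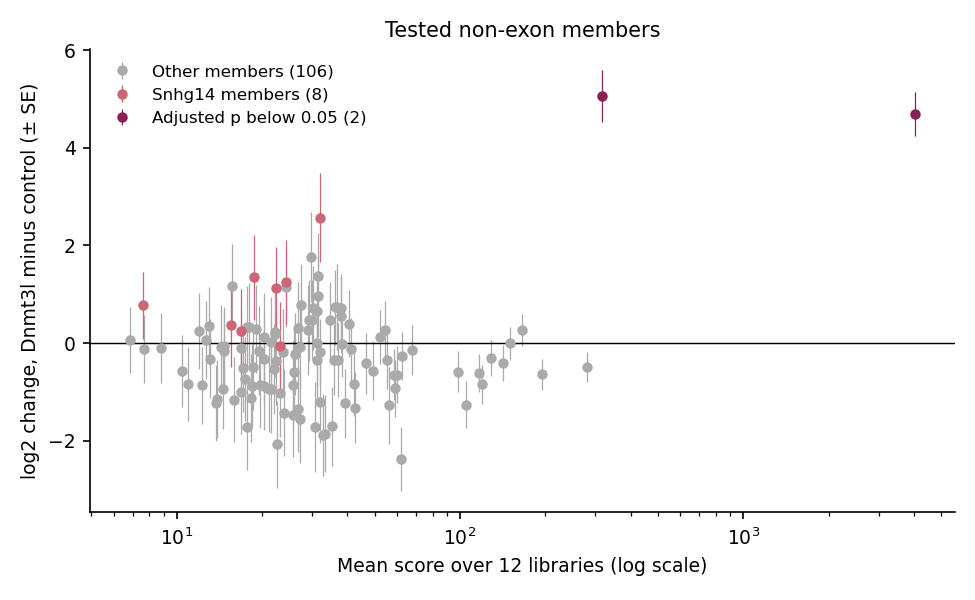
log2 change (Dnmt3l minus control, averaged over sexes, ± SE) against mean score over 12 libraries (log scale) for the 116 tested members. The 2 scaffold circles stand at 4.70 and 5.06; of the 8 Snhg14 members, 7 lie above 0.

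The scaffold pair dominated the summed score of the class. The summed score of the 470 members was 7394 ± 527 (SD, n = 6) in controls and 13946 ± 5656 (SD, n = 6) in Dnmt3l (exact permutation test over libraries, two-sided, p = 0.0152). Dnmt3l female 3, at 5040, was below every control. As a share of all circular RNA score the members took 4.29 ± 0.24% in controls and 9.69 ± 4.54% in Dnmt3l. The Dnmt3l libraries, at 4.98% to 15.7%, were all above the controls, at 3.98% to 4.60% (exact permutation p = 0.00216, the smallest that 6 against 6 can give). The scaffold pair alone was 0.0235% to 0.360% of all circular RNA score in controls and 0.813% to 11.9% in Dnmt3l. Without scaffolds the difference in summed score turned to -1396 (exact permutation p = 0.0411) and that in share to -0.26 percentage points (exact permutation p = 0.108). Within each sex the share was higher by 6.28 percentage points in males and 4.52 in females, each at an exact permutation p of 0.1, the smallest that 3 against 3 libraries can give. The summed score was higher by 8576 in males (exact permutation p = 0.1) and by 4528 in females (exact permutation p = 0.4).

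**Figure D5:**
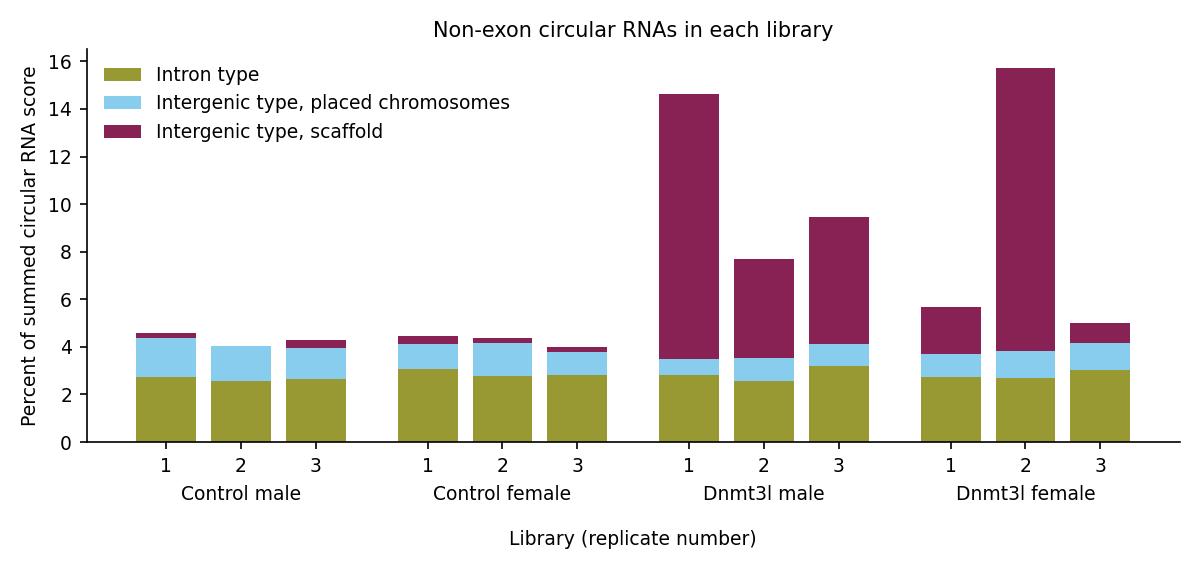
Percent of each library's summed circular RNA score taken by intron-type members, intergenic-type members on placed chromosomes and intergenic-type members on the scaffold (stacked bars, 3 libraries per group). The scaffold circles account for 0.813% to 11.9% in the 6 Dnmt3l libraries and at most 0.360% in controls.

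Intron-type members took 64.4 ± 4.4% (SD, n = 6) of the members' score in controls and 35.3 ± 16.8% (SD, n = 6) in Dnmt3l (exact permutation p = 0.00433). Of the whole circular RNA score they took 2.57% to 3.05% in controls and 2.56% to 3.18% in Dnmt3l, with overlap. Without scaffolds the intron share of the members' score was higher in Dnmt3l, by 6.39 percentage points (exact permutation p = 0.0346). The 109 intergenic members on placed chromosomes had summed scores of 1632 to 2663 in controls against 946 to 2107 in Dnmt3l. The number of members above 0 was 172.7 ± 13.4 (SD, n = 6) in controls and 152.8 ± 25.8 (SD, n = 6) in Dnmt3l, a difference within the spread between libraries (exact permutation p = 0.136). Without Dnmt3l female 1, which had 199, the difference was -29.1 (exact permutation p = 0.0108). With the reads of each library thinned to the number in the smallest, the count was 122 to 137 in controls and 111 to 132 in Dnmt3l, a difference of -5.5 (exact permutation p = 0.236).

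The Y chromosome held 2 members, named after their values had been seen. The circle chrY:90739142-90793417 scored 182, 451 and 388 in control males and 0, 431 and 0 in control females. In Dnmt3l it scored 0, 11 and 0 in males and 0 in each female. The circle chrY:90739142-90793680 scored 100, 51 and 68 in control males, 88 in control female 2, 39 in Dnmt3l male 2 and 24 in Dnmt3l female 3, and 0 in the other 6 libraries. Control female 2 thus carried both, at a Ddx3y level of 0.0371 CPM, while the Dnmt3l males, with Ddx3y at 22.0 to 23.5, had little of either. By the deposited positions 1 end of each circle lay in the gene Gm47283. Whether this sequence is also on the X chromosome could not be examined without a genome. The first circle was above 0 in 5 libraries and thus not among the circles tested. With detection in 2 libraries as the limit it was called lower averaged over sexes, by a log2 change of -3.80 ± 0.77 (adjusted p = 0.000771, limma). In males it was called lower by 5.45 ± 1.09 (adjusted p = 0.000643, limma). Averaged over sexes, 0.229% of all circles were then called. In females its adjusted p was 0.862 (limma). The circle passed that limit through the controls, where it was high, and was named after its values were seen. These calls are therefore no support for a change. That fit also gave smaller errors, with an SE of 0.279 against 0.892 for the sex difference of the longer scaffold circle. The second circle had an adjusted p of 0.578 (limma) among the circles tested.

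The host genes of the members were compared at the level of mRNA. The members had 192 host gene IDs, of which 165 were tested, and 95 of these (57.6%) were called, 58 higher and 37 lower in Dnmt3l (edgeR). The background was 51.5% of 15786 genes tested, 25.2% higher and 26.4% lower, and 56.4% of the hosts of exon-type circles were called. The median log2 change of hosts was 0.11, against 0.02 for all genes. Hivep2 mRNA rose from 702.3-812.9 to 939.4-1093.7 CPM (log2 change 0.39 ± 0.06, adjusted p = 0.000436, edgeR), with no overlap. Rims1 mRNA rose by 0.36 ± 0.08 (adjusted p = 0.00283, edgeR) and Dlg2 mRNA by 0.27 ± 0.06 (adjusted p = 0.00334, edgeR). The Hivep2 circles chr10:14004198-14066684 and chr10:14004201-14086082 had log2 changes of -0.56 and -0.13 and the Dlg2 circle one of -2.37, none of them called. Dpp10 mRNA rose by 0.31 ± 0.06, Ptprt mRNA by 0.42 ± 0.07, and Pde10a mRNA fell by 0.68 ± 0.21. Erc2, Ssbp2, Fmn1 and Gm21992 mRNA had log2 changes of 0.05, 0.01, 0.16 and 0.37 and were not called. In bulk tissue, more cells of a type and more RNA per cell cannot be told apart.

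Genes that act on circular RNAs were represented by 30 listed genes, of which 29 were tested and 11 called (37.9%, against a background of 51.5% of all genes). Higher in Dnmt3l was 1 of the 29 (3.45%, against 25.2% of all genes) and lower were 10 (34.5%, against 26.4%), and the median log2 change was -0.12, against 0.02 over all genes. Among 5 genes of lariat turnover, 2 were lower. Dbr1, the lariat debranching enzyme, was at 6.53 to 8.70 CPM in controls and at 4.61, 5.31, 4.92, 8.54, 5.87 and 5.13 in Dnmt3l (log2 change -0.46 ± 0.14, adjusted p = 0.0144, edgeR). Dnmt3l female 1 was within the control range and the other 5 below it. Tfip11, which takes part in spliceosome disassembly, fell by 0.39 ± 0.07. Of 15 regulators of back-splicing, 6 were lower and 1 higher. Ilf2, a double-stranded RNA-binding protein, fell by 0.55 ± 0.08 (adjusted p = 0.000306, edgeR). Khdrbs1 and Nono fell by 0.43 each, and the splicing regulators Mbnl1 and Mbnl2 by 0.35 and 0.24. Adar, an RNA editing enzyme, fell by 0.18 ± 0.06 (adjusted p = 0.0298, edgeR), a call that was lost without any of 7 libraries in turn. Hnrnpm was the one that rose, by 0.22. Dhx9, a helicase that acts against back-splicing at inverted repeats, had a log2 change of -0.12 ± 0.06 (adjusted p = 0.0825, edgeR). Among 9 genes of export and decay, Ythdf2 and G3bp1 fell, by 0.30 and 0.31. Without Dnmt3l female 1 the calls in the list were 19 of 29, 3 higher and 16 lower, when 62.9% of all genes were called.

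Cell type markers moved with genotype in the same libraries. Their counts of calls stand against 25.2% of all genes called higher and 26.4% called lower. The astrocyte markers summed to 6406 to 6790 CPM in controls and to 10652 to 11863 in Dnmt3l, except Dnmt3l female 1 at 6846. Most of that sum was Slc1a2, at 5243 to 5722 in controls and 5828 to 9943 in Dnmt3l. Of the astrocyte markers 5 of 6 were called higher and 1 lower (Aldh1l1, log2 change -0.18). Microglial markers (5 of 6 higher) were at 189 to 223 in controls and 216 to 387 in Dnmt3l, and endothelial markers (5 of 5 higher) at 143 to 165 and 181 to 304. Oligodendrocyte precursor markers (4 of 5 higher) were at 243 to 332 in controls and 242 to 493 in Dnmt3l. Oligodendrocyte markers had 4 of 6 higher and 1 lower, inhibitory neuron markers 2 of 8 higher and 5 lower, and excitatory neuron markers 1 of 10 higher and 4 lower. Of 9 liver markers tested, 7 were lower in Dnmt3l and 0 higher. These 7 calls rested on control male 3, control female 1 and control female 2, the controls with liver transcripts. In the remaining controls each of the 7 was no higher than in the highest Dnmt3l library, so the calls are not a difference shared by all controls. Of 5 red blood cell markers 4 were lower and 0 higher. Choroid plexus markers had 1 of 5 lower (Clic6) and 0 higher, but their sum was 468.9 and 578.7 CPM in Dnmt3l females 2 and 3, above every control (90.8 to 362.5), while the remaining Dnmt3l libraries had 63.8 to 225.0. The liver sum was highest in Dnmt3l female 3, at 697.2 against 311.3 to 598.7 in controls, of which 530.5 was Ttr, a gene on both lists. Without Ttr the liver sum was 166.7 there and 141.4 to 284.0 in controls. Most of it was Trf, at 165.8 there and 140.8 to 283.7 in controls, so the sum says little about liver transcripts. Alb was at 0.12 CPM in Dnmt3l female 3. The part of these in the circular RNA differences was not tested. The scaffold circles in Dnmt3l female 1, at 3858 and 291, were above all controls.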

How the data were processed

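Ribosomal RNA-depleted libraries of 12 samples were used, and the small RNA libraries of the same series were not used here. For circular RNAs the authors deposited a score per junction, which matched junction reads times a factor per library in 100% of values (difference of 0 after truncation). Expected counts and FPKM were deposited per transcript, per the file headers, for mRNA as for long non-coding RNA. The build GRCm38 and the tools HISAT2 2.0.1, bedtools 2.17.0, HTSeq 0.6.1, cutadapt 1.9.1, DESeq2 and bcl2fastq 2.17.1.14 stand in the submitters' processing notes without roles. The way circles were called, typed and counted was not given in the sources used here.

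Scores of all circles above 0 in at least 6 of 12 libraries were tested with limma 3.58.1 (trend) on log2(score + 5), which understates changes of low values. Expected counts were summed per gene and rounded, and genes with 0.5 FPKM or more in at least 3 libraries were tested with edgeR 4.0.16 (TMM, quasi-likelihood) in R 4.3.3. Transcripts with no gene ID, 0.533% to 0.601% of counts, were left out. mRNA totals were 22144970 to 32100277 counts. Each fit held 4 group means with 8 residual degrees of freedom. Calls used a Benjamini-Hochberg adjusted p below 0.05 over all features, and tests were two-sided. Per-library sums were compared by exact permutation over 6 against 6 libraries, at depths that limit rare circles to a few reads.

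Members, gene lists and rules were chosen with earlier results of these data known. Named circles were the 5 of each type with the highest mean score, up to 15 above 0 in all 12 libraries, those called or with the 5 smallest p-values, those on scaffolds, the 2 longest and 2 shortest, and hosts with the most members; named list genes were Dbr1, Adar, Dhx9 and the 6 called with the smallest p-values, and Hnrnpm, Ythdf2 and G3bp1 were named after their values were seen. On simulated data with known changes, 1.49%, 7.46% and 74.2% of circles changed by 1.5, 2 and 4 times were recovered among 1989 circles (1 of 56 calls false). For genes these were 80.6%, 95.5% and 100% among 15786 (9 of 193 calls false). The simulated spread was fixed beforehand, not estimated from these libraries, and no library was set apart. These rates therefore need not hold for the real data. Of 30400 deposited genes matched to RefSeq by symbol and chromosome, 99.9% overlapped in position. Alternatives were other pseudocounts, filters, scaling and tools, a replicate block, and leaving out libraries. Same-numbered samples did not deviate together (correlations of -0.062 to -0.003), and the numbers were not used as pairs.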

Additional observations from a re-analysis of the deposited data

Results flagged for a closer look

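In 65 sets of 6 libraries (the controls or the Dnmt3l libraries, for each reported value), 10 had a highest or lowest library far from the other 5 by Dixon's ratio. The limit of 0.625 is passed in about 1 in 20 sets by chance only for normally distributed values. Rare circles with many scores of 0 are not so distributed, so the 10 of 65 cannot be set against that rate. For Dbr1 the library apart was Dnmt3l female 1, at 8.54 CPM against 4.61 to 5.87 in the other Dnmt3l libraries. For Adar it was the same library, at 163.1 against 129.7 to 135.9. Among circles above 0 in every library, chr7:60785638-60834432 had a score of 144 in control female 3, against 31 to 68 in other controls, and of 182 in Dnmt3l female 1, against 24 to 71. The remaining 6 were rare circles with a single library above 0 in the genotype, for which the ratio is 1 at any score. These were chr7:59488404-59686171 (51 in control male 2), chr7:59490276-59686171 (60 in control female 1 and 12 in Dnmt3l female 1), chr17:8842557-8842730 (11 in control female 3 and 35 in Dnmt3l female 2) and chrY:90739142-90793417 (11 in Dnmt3l male 2).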

How the results depend on the processing

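The 2 scaffold circles kept their direction and their calls averaged over sexes under all 21 alternatives, with log2 changes of 3.60 to 5.31 (longer) and 3.87 to 6.29 (shorter). Leaving out each library gave 2 to 4 member calls averaged over sexes (4 without Dnmt3l female 1), 2 in males, 0 to 4 in females, and 0 to 1 for the difference between sexes. DESeq2 on recovered reads called 0 members in males and 0 in females, where 11 and 5 had an unadjusted p below 0.05. In the main fit 6.69% of all circles in males and 7.69% in females were below that limit. That share is not given for the alternatives, so the unadjusted counts here and below show neither a remaining signal nor its loss. In females the calls were also 0 with pseudocount 1 (8 unadjusted) and with detection in 9 libraries (6 unadjusted), and 1 without the 3 controls with liver transcripts. For the difference between sexes 1 member was called with pseudocount 20, with detection in 2 libraries and without those 3 controls, each time the longer scaffold circle. With detection in 2 libraries chrY:90739142-90793417 was also called, lower, averaged over sexes and in males. It passed that limit through the controls, so the call is no support for a change.

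Without scaffolds the summed score differed by -1396, the share by -0.2585 and the intron share by 6.392 percentage points, all reversed. Without scaffolds and Dnmt3l female 1, an alternative chosen after seeing the data, they were -1840, -0.2413 and 6.672, and the number of members above 0 differed by -29.73. Without the 3 controls with liver transcripts the summed score differed by 6360 (exact permutation p = 0.0833), the share by 5.483 (p = 0.0714, exact) and host calls fell to 50. With a replicate block the summed score differed by 6552 (exact permutation p = 0.0625), and the block changed no other call. Leaving out single libraries gave differences of 5268 to 8333 (summed score), 4.194 to 6.341 (share), -34.24 to -25.5 (intron share) and -29.07 to -15.57 (number above 0). It gave 85 to 118 host calls and 9 to 19 calls among genes acting on circular RNA. The share of all genes called ran from 45.6% to 62.9% over the same fits, so these counts moved along with the background. Other settings left host and list calls within 1.5 times. Depth limits single circles: most rest on a few reads per library.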
